A study of Mus musculus with 6 samples.

Results

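The Ms4a genes encode small proteins that cross the membrane several times and lie clustered on mouse chromosome 19. The members described here were Ms4a7, Ms4a6b, Ms4a6c, Ms4a6d, Ms4a4a, Ms4a4c and Ms4a1, 7 of the 35598 identifiers in each deposited table, found by their GENCODE M21 symbols. They were measured by RNA sequencing in central nervous system-associated macrophages, the macrophages of the brain's perivascular spaces, meninges and choroid plexus. The cells were sorted from brains of male C57BL/6 mice as CD3-CD11b+CD45+CD206+ cells, from aged mice of 18 months (3 libraries) and young mice of 2 months (3 libraries). No genetic change or treatment was labelled in either group. Nothing in the labels ties a library to an animal of its own, and every p-value here therefore reflects library-to-library spread that could be purely technical.

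The best known member of the family is Ms4a1, which encodes CD20 of B cells. Other members are made by myeloid cells, and Ms4a7 is widely used to tell border macrophages of the brain from microglia. In human macrophages MS4A4A sits in lipid rafts with the fungal receptor Dectin-1, and the human MS4A locus is linked to levels of soluble TREM2, a lipid-sensing receptor. The comparison addressed how these transcripts differ with age in macrophages at the brain's borders.

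Library totals lay between 26605077 and 33306093 counts. Mrc1, which encodes the CD206 of the sort gate, was at 2345, 1182 and 1306 CPM (counts normalised to library size with TMM) in aged libraries and at 2770, 2940 and 2674 CPM in young libraries. Other cells' transcripts were uneven. The 9 neutrophil markers summed to 21454, 7702 and 4.49 CPM in aged libraries and to 11933 to 37442 CPM in young ones, and choroid plexus epithelium markers stood highest in aged replicate 3 (7987 CPM) and young replicate 3 (11737 CPM). In sorted bulk samples fewer cells of a type and less RNA per cell cannot be told apart. Across all genes, edgeR's quasi-likelihood test called 1 of 10661 genes higher in aged libraries (0.00938%) and 0 lower (0%), with 387 and 218 at an unadjusted p under 0.05 (3.63% and 2.04%). The DESeq2 Wald test called 270 higher (2.22%) and 188 lower (1.55%) of 12145.

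In the mm10 build, Ms4a1 lies at chr19:11249675-11266241 and Ms4a7 at chr19:11321039-11336146, both on the minus strand. Ms4a4a (chr19:11375523-11392790), Ms4a4c (chr19:11404770-11427246), Ms4a6c (chr19:11469366-11482192) and Ms4a6b (chr19:11516512-11531256) follow on the plus strand, and Ms4a6d (chr19:11586604-11604849) lies on the minus strand. All 7 are annotated as protein coding. By coding sequence the 3 Ms4a6 genes were the closest relatives: Ms4a6b and Ms4a6c shared 85.8% of 642 aligned bases, Ms4a6b and Ms4a6d 81.2% of 730, and Ms4a6c and Ms4a6d 77.4% of 647. Ms4a4a and Ms4a4c shared 68.2% of 648 aligned bases, and Ms4a7 shared between 57.7% and 63.9% with the other members.

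Ms4a6b and Ms4a6c were also alike in their promoters. RefSeq promoters (GRCm38.p6, 250 bases before to 50 after the start) were matched for 5 of the 7 members. Those of Ms4a6b and Ms4a6c are shown because they are near copies, with 89.4% identity over 216 aligned bases, and that of Ms4a7, the most abundant member, because no such copy was found among the members. All are written 5′ to 3′ along the gene's strand, and capitals mark GGAAGT, a core motif of ETS factors such as PU.1, on either strand (ACTTCC where it lies on the other strand). The windows are chr19:11336097-11336396 (minus strand) for Ms4a7, chr19:11518309-11518608 (plus strand) for Ms4a6b and chr19:11469118-11469417 (plus strand) for Ms4a6c.
Ms4a7: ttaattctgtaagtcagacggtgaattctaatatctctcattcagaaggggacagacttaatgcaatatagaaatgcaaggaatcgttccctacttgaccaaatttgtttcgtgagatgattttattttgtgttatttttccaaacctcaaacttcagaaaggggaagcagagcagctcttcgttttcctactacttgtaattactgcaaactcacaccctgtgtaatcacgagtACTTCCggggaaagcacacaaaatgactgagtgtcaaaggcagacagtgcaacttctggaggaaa
Ms4a6b: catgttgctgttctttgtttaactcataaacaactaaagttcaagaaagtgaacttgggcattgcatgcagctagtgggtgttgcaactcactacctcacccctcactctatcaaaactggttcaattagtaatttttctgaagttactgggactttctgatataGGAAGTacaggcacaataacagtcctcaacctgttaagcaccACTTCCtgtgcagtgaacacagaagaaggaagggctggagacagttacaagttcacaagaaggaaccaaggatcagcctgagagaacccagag
Ms4a6c: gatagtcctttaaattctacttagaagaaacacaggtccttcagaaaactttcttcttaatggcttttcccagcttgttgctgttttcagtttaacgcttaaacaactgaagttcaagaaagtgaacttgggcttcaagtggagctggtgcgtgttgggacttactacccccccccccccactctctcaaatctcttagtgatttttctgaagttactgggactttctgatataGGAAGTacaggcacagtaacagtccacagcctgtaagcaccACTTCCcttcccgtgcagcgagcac

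The motif began 15 bases before the start of Ms4a7, 85 and 43 bases before that of Ms4a6b, and 16 bases before and 25 bases after that of Ms4a6c. It also lay 15 bases before the start of Ms4a4c, and these letters were not in the Ms4a4a window or in that of a second, downstream start of Ms4a7. Of all 32851 RefSeq promoter windows of this length, 23.8% held the motif on either strand. RefSeq places this start of Ms4a6b at 11518559, and GENCODE places the gene's first base upstream, at 11516512.

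Relatedness also bears on counting. Of the distinct 100-base stretches in Ms4a6c transcripts, 45.8% also occur in another gene, all of them in BE692007, which overlaps Ms4a6c on the opposite strand and whose reads there cannot be told apart without strand. The level assigned to BE692007 was low, at 68.8 ± 10.3 CPM in aged and 73.3 ± 6.25 CPM in young libraries (SD, n = 3 each). That level itself depends on how reads of the shared stretches were assigned. No 100-base stretch of Ms4a7, Ms4a6b, Ms4a6d, Ms4a4a or Ms4a1 was found in another gene, and 1.66% of those of Ms4a4c lie in Ms4a4b. At 50 bases, the shared share was 3.57% for Ms4a6b, 2.54% for Ms4a6d and 8.19% for Ms4a4c. The deposited counts of Ms4a7, Ms4a4a and Ms4a1 were whole numbers in all 6 libraries. Those of Ms4a4c were whole numbers in 1 library and those of the 3 Ms4a6 genes in 0 libraries. The values of Ms4a4c and the Ms4a6 genes thus rest in part on an estimated assignment of reads and are uncertain to that extent.

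Per length, Ms4a7 was the highest member in every library. Its deposited TPM was 2002, 1287 and 2655 in aged libraries and 3108, 3618 and 3292 in young libraries. It ranked between 49 and 95 among all genes in aged libraries and between 42 and 46 in young ones. Ms4a6c came next, at 811 ± 93.5 TPM in aged and 894 ± 136 TPM in young libraries (SD, n = 3 each). Below it the order of the means differed between ages. In aged libraries Ms4a6d (616 ± 196 TPM) and Ms4a6b (588 ± 46.1 TPM) preceded Ms4a4a (463 ± 61.6 TPM), and the ranges of Ms4a6c, Ms4a6d and Ms4a6b overlapped from each to the next. The order did not hold in every library, since in aged replicate 3 Ms4a6d (393 TPM) was below Ms4a4a (533 TPM), as in the young libraries, and the aged ranges of these genes overlapped. In young libraries Ms4a4a (426 ± 27.9 TPM) and Ms4a6b (393 ± 65.2 TPM) overlapped and lay above Ms4a6d (291 ± 36.5 TPM). Ms4a4c stood below these in both groups, at 204 ± 33.4 TPM in aged and 156 ± 57.6 TPM in young libraries, and Ms4a1 was the lowest member in each group.

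**Figure D1:**
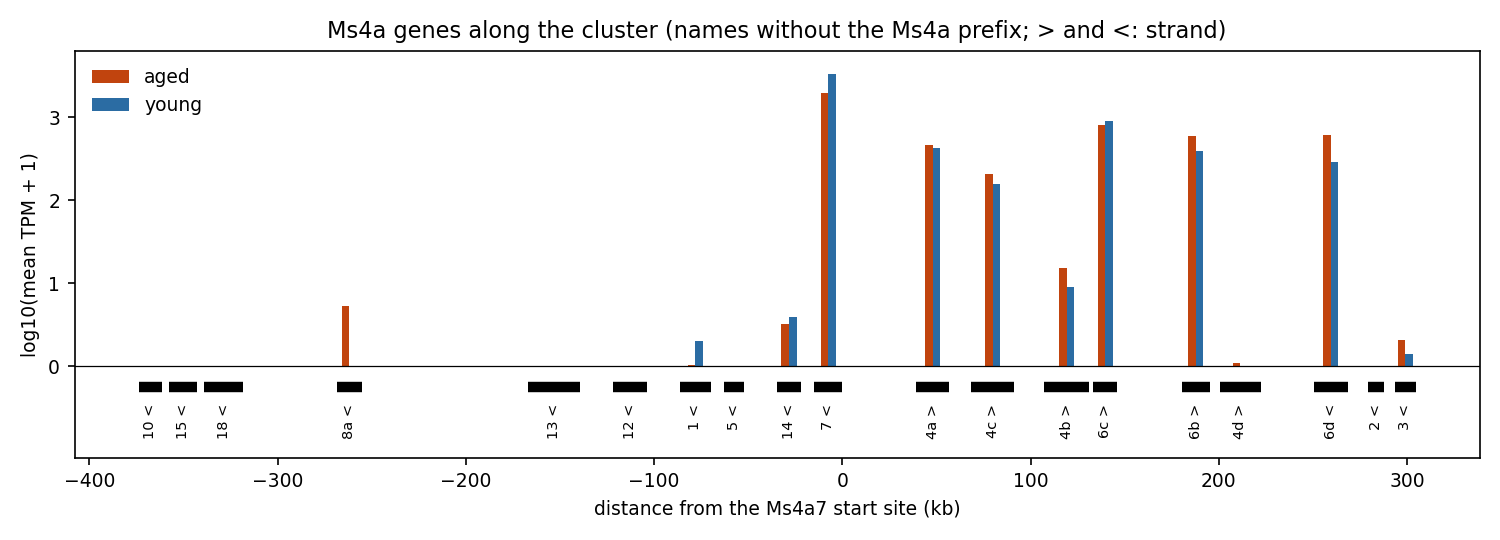
Ms4a genes along the chromosome 19 cluster, by distance from the Ms4a7 start site in kb, with bars of log10(mean TPM + 1) for aged (left bar) and young (right bar) libraries, 3 each, drawn at the middle of each gene, and black blocks for the genes' extents. The 6 tall pairs of bars are Ms4a7, Ms4a4a, Ms4a4c, Ms4a6c, Ms4a6b and Ms4a6d, and Ms4a10, Ms4a15 and Ms4a18 at the far left are at or near 0.

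With age, Ms4a7 was lower and Ms4a6d higher in every aged library than in any young one, and the other 5 members overlapped. None of the 7 members, all of which passed the low-count filter, passed the test, in edgeR or in the DESeq2 Wald test. At an unadjusted p under 0.05 there was 1 member, Ms4a7. Estimates were above 0 for 3 members and below 0 for 4, with a median log2 fold change of -0.08 over the members and -0.02 over all genes tested. The 4 and the median include Ms4a1 (-5.28, SE 3.00), which had 0 counts in several libraries. Over all genes tested, 7.54% were higher and 7.19% lower in every aged library. Among the 2189 whose mean reached 50 CPM these shares were 11.2% and 8.45%, so 1 member in each direction among the 6 of that abundance is close to the background. With the test limited to those 2189, 0.868% were called higher and 0.274% lower, and again no member.

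**Figure D2:**
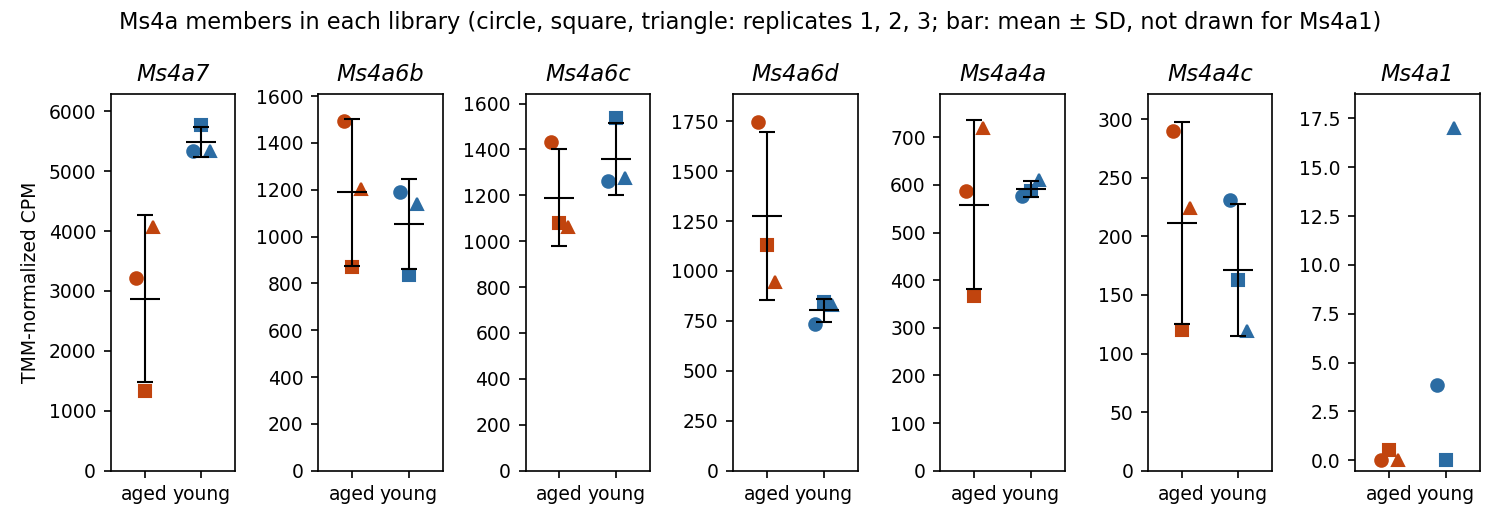
TMM-normalized CPM of each member in aged (left) and young (right) libraries, on a linear axis of its own per gene, with points for replicates 1 to 3 and bars for mean ± SD, drawn for all members but Ms4a1. Ms4a7 lies at 1333 to 4071 CPM in aged libraries against 5344 to 5775 CPM in young ones, and the aged points spread more widely than the young ones for Ms4a7, Ms4a6d and Ms4a4a.

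Ms4a7 was at 3215, 1333 and 4071 CPM in aged libraries and at 5344, 5775 and 5344 CPM in young libraries. The young libraries lay close together and the aged ones spread 3.05-fold from lowest to highest, with aged replicate 2 lowest. The counts behind these levels were 92524, 51465 and 115180 in aged and 166904, 155166 and 149405 in young libraries. The mean was 2873 ± 1401 CPM in aged and 5488 ± 249 CPM in young libraries (SD, n = 3 each), a log2 fold change of -0.93 (SE 0.39, unadjusted 95% interval -1.81 to -0.06, edgeR adjusted p = 0.840). Without aged replicate 2, the library with the lowest border macrophage and the highest microglia marker sum, the estimate was -0.59. Without aged replicate 3, where neutrophil transcripts were nearly absent, it was -1.27. Single markers did not all follow the sums. In aged replicate 2, Cbr2 (715 CPM) and Cd209f (501 CPM) were at their highest of all libraries, and the microglia marker Gpr34 (1962 CPM) at its lowest of the aged ones. The cause of these shifts was not tested.

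Of the Ms4a6 genes, Ms4a6d was at 1748, 1128 and 946 CPM in aged libraries and at 736, 843 and 829 CPM in young libraries. Every aged library was above every young one, and aged replicate 1 stood highest. The log2 fold change was 0.67 (SE 0.31, interval -0.03 to 1.37, edgeR adjusted p = 0.892), and 0.38 without aged replicate 1, 0.75 without aged replicate 2 and 0.85 without aged replicate 3.

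Ms4a6b was at 1494, 869 and 1202 CPM in aged libraries and at 1192, 836 and 1139 CPM in young libraries. Ms4a6c was at 1432, 1078 and 1061 CPM in aged libraries and at 1263, 1538 and 1276 CPM in young libraries. The groups overlapped for both. The estimates were 0.17 for Ms4a6b (interval -0.52 to 0.87) and -0.19 for Ms4a6c (interval -0.81 to 0.43), and neither passed (edgeR adjusted p = 0.993 for both). Within libraries, the log2 ratio of Ms4a6d to Ms4a6c was 0.29, 0.07 and -0.17 in aged and -0.78, -0.87 and -0.62 in young libraries. These values did not overlap, while the ratios of Ms4a6b to Ms4a6c and of Ms4a6d to Ms4a6b overlapped. None of these ratios was tested, and the share of all genes apart on such scales was not calculated.

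Of the Ms4a4 genes, Ms4a4a was at 588, 368 and 719 CPM in aged libraries and at 576, 587 and 610 CPM in young libraries. Its aged values lay on both sides of the young ones, with aged replicate 2 lowest, and the log2 fold change was -0.08 (SE 0.32, interval -0.80 to 0.63). Ms4a4c, which belongs to the genes that interferons induce in mouse cells, was at 290, 120 and 225 CPM in aged libraries and at 231, 163 and 120 CPM in young libraries. The groups overlapped, and the estimate was 0.31 (SE 0.42, interval -0.64 to 1.26).

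Ms4a1 was nearly absent from the aged libraries, with 0, 20 and 0 counts, against 120, 0 and 476 counts in young libraries. The young counts came from replicates 1 and 3, and young replicate 2 had none, so the groups overlapped. A count of 0 is bounded by 3 counts, or 0.104 CPM in aged replicate 1, 0.106 CPM in aged replicate 3 and 0.112 CPM in young replicate 2, which covers counting error only. The test did not call it (edgeR adjusted p = 0.936), and it passed the filter through the young libraries in which it was high. The summed level of 10 other B cell markers was 231 to 239 CPM in aged and 167 to 192 CPM in young libraries. Most of it came from Ighm (176 ± 62.7 CPM in aged and 81.4 ± 6.39 CPM in young libraries) and Cd79b (33.9 ± 43.8 CPM in aged and 78.3 ± 22.3 CPM in young libraries), while Blk had 0 counts in all 6 libraries. In young replicate 3, where Ms4a1 was highest, Cd79b was at its highest of all libraries (102 CPM) and Cd22 at its highest of the young ones (1.75 CPM). Ighm was at its lowest of all libraries there (74.8 CPM), and Fcer2a had 0 counts. Aged replicate 1, with 0 counts of Ms4a1, had the highest Cd22 (13.9 CPM) and Fcer2a (10.9 CPM) of all libraries, and Cd79b at 84.1 CPM. Cd79a had 0 counts in all 3 young libraries.

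**Figure D3:**
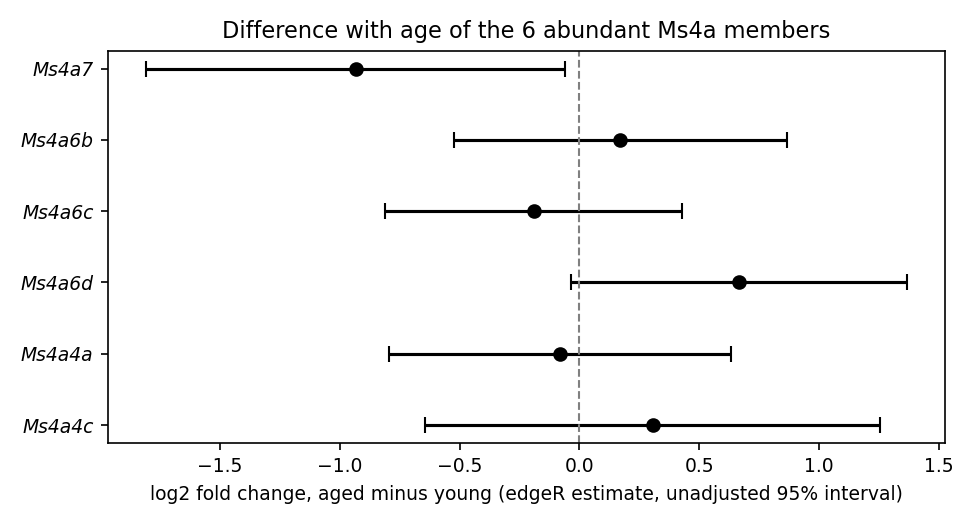
edgeR log2 fold changes of the 6 abundant members, aged minus young, with unadjusted 95% intervals (3 libraries a group) and a dashed line at 0. Only the Ms4a7 interval lies wholly on one side of 0, from -1.81 to -0.06, and no member passed after adjustment over all genes.

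The make-up of the family was apart between the ages, which is given as a description. Of the summed TPM of the 7 members, Ms4a7 took 41.3%, 31.2% and 52.8% in aged libraries and 60.6%, 61.4% and 60.0% in young libraries. Ms4a6d took 7.82% to 18.5% in aged and 4.86% to 5.66% in young libraries, Ms4a6b 10.7% to 14.5% in aged and 5.63% to 8.42% in young, and Ms4a4a 8.92% to 10.6% in aged and 7.34% to 8.20% in young, none of which overlapped. The shares of Ms4a6c overlapped, at 14.03% to 21.3% in aged and 15.1% to 17.7% in young libraries, as did those of Ms4a4c. Of the 2189 genes whose mean reached 50 CPM, 23.1% were higher and 2.15% lower in every aged library when their TPM was divided by the same sum. Shares sum to 100%, so a lower share of Ms4a7 raises the others. The members' total TPM was also lower in every aged library, at 4120 to 5023 TPM against 5126 to 5892 TPM in young libraries. Ms4a7 was the only member lower in every aged library in TPM (1287 to 2655 against 3108 to 3618 TPM). Ms4a6d (393 to 760 against 249 to 315 TPM) and Ms4a6b (538 to 628 against 332 to 462 TPM) were higher in every aged library, and the others overlapped. In TPM, 16% of the 2189 genes were higher and 5.48% lower in every aged library.

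**Figure D4:**
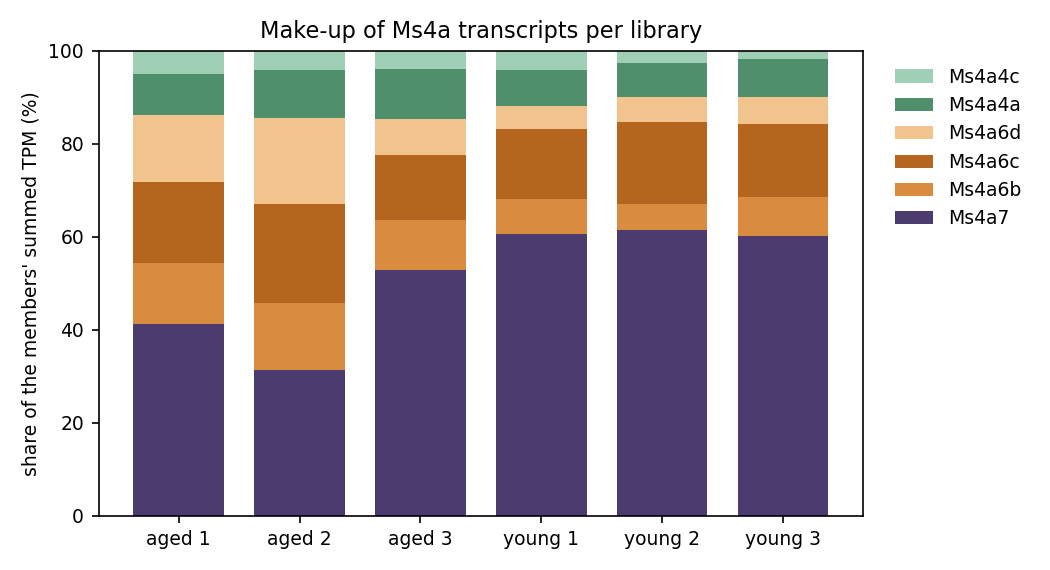
Stacked shares (%) of the members' summed TPM in each library, aged left and young right; Ms4a1, under 0.05% in every library, is not drawn. Ms4a7 makes up 31.2% to 52.8% in aged libraries and 60.0% to 61.4% in young ones.

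Ratios within a library hardly depend on its scaling. The log2 ratio of Ms4a6d to Ms4a7 was -0.88, -0.24 and -2.10 in aged and -2.86, -2.77 and -2.69 in young libraries, a difference of 1.70. That of Ms4a6b was -1.105, -0.62 and -1.76 in aged and -2.16, -2.79 and -2.23 in young libraries (difference 1.23). The differences were 1.34 for Ms4a4c and 0.94 for Ms4a4a, each also higher in every aged library. For these 4 members the exact permutation p was 0.1, the smallest that 3 against 3 libraries allow (adjusted p = 0.15 over 6 ratios). Ms4a6c overlapped (difference 0.88, exact permutation p = 0.2), as did Ms4a1, whose difference was below 0 (-0.87, exact permutation p = 0.7). These ratios say little about the family in particular, since 47.8% of 2188 other genes whose mean reached 50 CPM were higher in every aged library relative to Ms4a7, and 0.183% lower.

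Set against other border macrophage genes, the order of the ages for Ms4a7 depended on the gene it was set against. The summed level of 14 border macrophage markers without Ms4a genes was 15400, 7848 and 11204 CPM in aged and 22790, 24811 and 21366 CPM in young libraries. None of the 14 passed the test, with 11 estimates below 0 (median -0.47) and 6 genes lower in every aged library. Of all genes tested 7.19% were lower in every aged library, and of those whose mean reached 50 CPM 8.45%. All 14 had counts in every library. As a percent of that sum, Ms4a7 was at 20.9%, 17.0% and 36.3% in aged libraries and at 23.5%, 23.3% and 25.01% in young libraries, so that the groups overlapped on this scale, which was chosen after seeing the data. As a percent of Mrc1 it was at 137%, 113% and 312% in aged and at 193%, 196% and 199.8% in young libraries, which also overlapped. As a percent of Pf4, another of the 14, it was at 47.3%, 61.6% and 76.0% in aged and at 42.0%, 41.6% and 46.5% in young libraries, higher in every aged library. Pf4 itself was the largest single marker of the sum in every library, at 6793, 2166 and 5356 CPM in aged and at 12729, 13874 and 11505 CPM in young libraries. Pf4 was lower in every aged library (log2 fold change -1.41), so the sum and Pf4 are not separate scales. The other abundant members were also higher in every aged library relative to Pf4. The share of all genes apart on this scale was not calculated.

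As a percent of the border macrophage sum, of which Pf4 was the largest part, the other 5 abundant members were higher in every aged library. Ms4a6d was at 11.4%, 14.4% and 8.44% in aged against 3.23%, 3.40% and 3.88% in young libraries, and Ms4a6c at 9.30%, 13.7% and 9.47% against 5.54%, 6.20% and 5.97%. Ms4a6b was at 9.70%, 11.1% and 10.7% in aged against 5.23%, 3.37% and 5.33% in young libraries, and Ms4a4a and Ms4a4c were likewise apart. So were 52.1% of the 2189 genes whose mean reached 50 CPM, with 0.228% lower in every aged library. The 10 microglia markers had a sum of 9945, 17491 and 13983 CPM in aged and 6376, 4694 and 7327 CPM in young libraries. All 10 were detected in each library, and none passed the test. Of the 10, 8 were higher in every aged library, as were 7.54% of all genes tested and 11.2% of those whose mean reached 50 CPM. The part of microglia transcripts in the members' values was not tested.

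Set against the microglia sum, also a scale chosen after seeing the data, the order turned. Ms4a7 was at 7.62% to 32.3% of that sum in aged and 72.9% to 123% in young libraries, Ms4a6b at 4.97% to 15.03% in aged and 15.5% to 18.7% in young, Ms4a6c at 6.16% to 14.4% in aged and 17.4% to 32.8% in young, and Ms4a4a at 2.10% to 5.91% in aged and 8.33% to 12.5% in young. These 4 were lower in every aged library, and Ms4a6d and Ms4a4c overlapped. Of the 2189 genes, 51.3% were lower and 0.822% higher in every aged library on this scale, so neither scale sets the members apart from other genes.

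**Figure D5:**
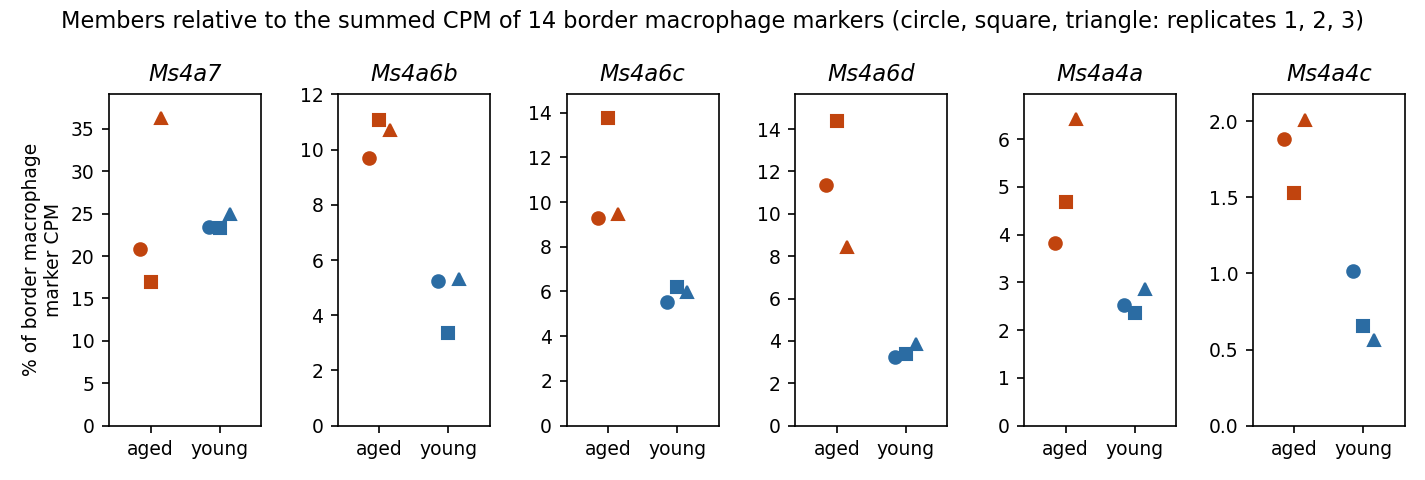
CPM of each abundant member as a percent of the summed CPM of 14 border macrophage markers, in aged (left) and young (right) libraries, with points for replicates 1 to 3. The groups overlap for Ms4a7 (17.0% to 36.3% in aged, 23.3% to 25.01% in young) and are apart for the other 5 members.

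The deposited effective lengths, which follow the mix of transcripts assigned to a gene, separated the ages for the 3 Ms4a6 genes. That of Ms4a6b was 935 to 977 bases in aged and 1001 to 1188 bases in young libraries. That of Ms4a6d was 957 to 1032 bases in aged and 1084 to 1139 bases in young libraries, both shorter in aged. That of Ms4a6c was 633 to 791 bases in aged and 597 to 630 bases in young libraries. Those of Ms4a7 (645 to 668 bases over all libraries), Ms4a4a, Ms4a4c and Ms4a1 overlapped. Among the 2189 genes whose mean reached 50 CPM, 9.64% had a longer and 9.37% a shorter effective length in every aged library. TPM divides by this length. Ms4a6b was at 538 to 628 TPM in aged and 332 to 462 TPM in young libraries without overlap, while its CPM values overlapped. In TPM, 16% of these 2189 genes were higher and 5.48% lower in every aged library.

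Of the 12 other genes with an Ms4a symbol, 6 had 0 counts in all libraries, among them Ms4a2, which encodes the beta chain of the IgE receptor of mast cells and basophils. The 8 markers of those cells summed to at most 0.725 CPM in any library. Ms4a15 had 5 counts at most. Ms4a14 was at 26.2, 1.01 and 33.2 CPM in aged and at 26.0, 29.6 and 27.8 CPM in young libraries, with only aged replicate 2 apart. Ms4a4b, a T cell gene in mice, was at 47.8, 12.7 and 2.79 CPM in aged and at 22.5, 1.94 and 9.80 CPM in young libraries. These were the 2 tested genes of the 12, and neither passed.

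Ms4a8a had 0, 131 and 600 counts in aged libraries and 0 in each young library. Ms4a3, a marker of granulocyte and monocyte progenitors in mice, had 140 counts in aged replicate 2, 70 in young replicate 1 and 0 elsewhere. Ms4a4d had 22 counts in aged replicate 2 and 1 in young replicate 2.

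The MS4A-related genes Tmem176a and Tmem176b, whose annotated spans overlap on opposite strands of chromosome 6, did not pass either. The overlap of their exons was not calculated, and their deposited counts were whole numbers in 100% of libraries. Tmem176a was at 196, 490 and 681 CPM in aged and at 210, 332 and 182 CPM in young libraries. Tmem176b was at 732, 1067 and 1080 CPM in aged and at 871, 764 and 811 CPM in young libraries.

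A list of 12 genes was taken as signalling partners, without evidence here that each of them acts with MS4A4A. Of these, 11 were tested and none passed. Estimates were above 0 for 8 (median 0.33 over the 11), and 2 were higher in every aged library. The same held for 7.54% of all genes tested and for 11.2% of those whose mean reached 50 CPM. Grn, which encodes progranulin, was at 774, 1272 and 851 CPM in aged and at 618, 660.3 and 503 CPM in young libraries. Il4ra, a chain of the interleukin-4 receptor, was at 60.2, 74.7 and 57.9 CPM in aged and at 41.4, 29.0 and 21.9 CPM in young libraries. Trem2, the receptor that human MS4A4A is tied to, was at 242, 723 and 482 CPM in aged and at 274, 174 and 175 CPM in young libraries (edgeR adjusted p = 0.743), and is also made by microglia. Tyrobp, its adaptor, was at 7028, 3594 and 7083 CPM in aged and at 7652, 6461 and 6880 CPM in young libraries. Clec7a, which encodes Dectin-1, was at 81.3, 96.3 and 114 CPM in aged and at 82.5, 91.0 and 57.9 CPM in young libraries. The groups overlapped for all 3.

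The genes whose profile over the 6 libraries was most like that of Ms4a7, among 2183 candidates, were 1110059G10Rik, Gstk1, Dph3, Gmfg and Tmem256, with root mean square differences of 0.12 to 0.16 in centred log2(CPM + 1). Gmfg, for example, was at 766, 334 and 799 CPM in aged and at 1033, 1478 and 1165 CPM in young libraries. Ms4a genes were not among these candidates, and the member nearest to Ms4a7 was Ms4a4a at 0.52. The smallest difference among 2183 genes and that among the few members cannot be compared, so this does not set Ms4a7 apart from its family. Ms4a4a itself was nearest to Aif1 (0.05) and Eif1 (0.07). Aif1 was at 3082, 1762 and 3784 CPM in aged and at 2817, 3067 and 3015 CPM in young libraries, also lowest in aged replicate 2. The nearest to Ms4a6d were the chemokine gene Ccl12 (0.10) and Runx1 (0.15), and Ccl12 was at 5142, 2865 and 2829 CPM in aged and at 2349, 2568 and 2432 CPM in young libraries. Akap13 and Rack1 were nearest to Ms4a6b, Zmat2 and Chchd2 to Ms4a6c, and Timm10 and Alox5ap to Ms4a4c. For Ms4a1 the nearest, Fam204a and Znrf2, were far off (0.82 and 0.89).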

How the data were processed

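The 6 libraries were prepared with a low-input template-switching kit from about 500 pg of total RNA and 13 PCR cycles, per the labels' protocols. The kit does not mark strand. The submitters' processing notes name mm10 and, without roles, the tools bcl2fastq 2.20, DRAGEN, fastp, FastQC and Picard. Which annotation was counted is not given in the sources used here. Per the file headers, the authors deposited for each library an estimated count of reads per gene, which was not scaled to depth, and a TPM value, which the authors scaled to effective length and depth. The deposited tables also gave each gene's effective length in bases, a further value used only to describe the members. Each table listed 35598 identifiers, of which 35513 matched GENCODE M21 (mm10) when the version was ignored.

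Estimated counts were rounded to whole numbers. Library totals lay between 26605077 and 33306093 counts. The test was edgeR 4.0.16 in R 4.3.3 (filterByExpr by age group, TMM scaling, robust quasi-likelihood F test, no covariate), two-sided, with Benjamini-Hochberg adjustment over 10661 genes and a threshold of 0.05. Standard errors (SE) and unadjusted 95% intervals were calculated back from the F statistic. Levels are TMM-normalized CPM, as mean ± SD of 3 libraries. Ratios of members to Ms4a7 used CPM + 1 and an exact two-sided permutation test in SciPy 1.17.1, adjusted over 6 ratios. The fit was tested on simulated data. All 7 members, the other genes with an Ms4a symbol, Tmem176a, Tmem176b and the 12 genes listed as signalling partners were accounted for. For Ms4a7 the 5 genes, and for each other member the 2 genes, with the most similar profile were named. The similarity measure was the root mean square difference in log2(CPM + 1), centred per gene, over the 6 libraries, among genes whose mean reached 50 CPM. Marker genes and other genes beside a result were named with their values already known. The members, lists and tests were chosen with earlier results of these data known. Alternatives were DESeq2 1.42.0 size factors and its Wald test, limma 3.58.1 (voom, and trend on log2(TPM + 1) and log2(TPM + 0.1) among genes whose mean TPM reached 1), other low-count filters, non-robust dispersion, a replicate block and leaving out each library. A further marker of the B cell list is not reported here.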

Additional observations from a re-analysis of the deposited data

How the results depend on the processing

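No Ms4a member was called in either direction in any of the 16 alternatives run, including a 50 CPM minimum on the mean that was chosen after seeing the data. Genes called higher and lower over the whole table (1 and 0) numbered 270 and 188 by DESeq2. They were 51 and 11 without any filter on low counts, and 19 and 6 under the 50 CPM minimum. In limma-voom 0 genes were called higher and 0 lower, with 936 at an unadjusted p under 0.05. With any library left out, 0 to 2 were higher and 0 to 1 lower.

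Ms4a7 stayed below 0 in every alternative, from -1.27 to -0.59 when a library was left out and from -1.12 to -0.81 otherwise (adjusted p 0.126 to 0.952). Ms4a6d stayed above 0 (0.38 to 0.85, and 0.62 to 1.03, adjusted p 0.281 to 0.952), as did Ms4a4c, and Ms4a6c stayed below 0. Ms4a6b ranged from -0.017 to 0.36 with a library left out, below 0 only without aged replicate 1. Ms4a4a turned to 0.11 on both TPM scales and ranged from -0.30 to 0.15 with a library left out, above 0 only without aged replicate 2. On the TPM scales the median of all genes was also shifted, to 0.22 and 0.27. The ratio of Ms4a1 to Ms4a7 turned to 0.036 with TPM + 1 and ranged from -1.98 to 0.16 with a library left out. The cause of these turns was not tested. Ms4a1 gave no value under the filters of 10 CPM and of 50 CPM or on the TPM scales.

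The replicate numbers are not stated to pair libraries, and same-numbered libraries deviated together with correlations of -0.0074, 0.0405 and 0.0992 across genes, so the block was not used. With a replicate block Ms4a7 was at -1.07 (adjusted p = 0.952) and Ms4a6d at 0.62 (adjusted p = 0.952), and 1 gene was called higher and 0 lower.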
